A study of Mus musculus with 8 samples.

Results

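Interferon and innate response genes were examined as a set of 36 genes listed by name. No measured value was a criterion, but the list was drawn up with earlier results of these data known. Their loci were defined as the mm10 gene body of the GENCODE annotation plus 20 kb on each side. All 36 genes were found in the annotation. All but Mx2, which is annotated there as a polymorphic pseudogene, are among the 21938 protein-coding genes that served as background. The members fall into 6 role groups: 8 interferon regulatory factors (IRF factors), 2 STAT factors, 4 receptor chains, 5 sensors and adaptors, 14 antiviral effectors and feedback genes, and 3 genes of antigen presentation. Several loci overlap, so the 36 loci form 32 separate stretches of 2.225 Mb in all, and neighbours such as Ifit2 and Ifit3 or Ifitm1 and Ifitm2 share regions.

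The cells were mouse embryonic fibroblasts (MEFs) at day 5 of reprogramming towards pluripotency. Per the study's methods these were OG2-MEFs, which carry an Oct4-GFP reporter, kept in iCD3 medium. Oct4 was given in both arms, with wild-type Nanog in the arm labelled Nanog+Oct4 (here NanogWT) and with a Nanog fusion in the arm labelled NanogN70+Oct4. The study's text describes the fusion as a stretch of SS18 that binds BRG1, joined to the N-terminus of NANOG and called NanogBiD. Identity of the labelled fusion with NanogBiD was taken from that text. CUT&Tag uses an antibody to bring a transposase to chromatin and cut sequencing adapters in beside the target, and was done for 4 targets in each of the 2 arms. The targets were the FLAG tag on NANOG, BRG1 (the motor subunit of the BAF remodeller), H3K27ac (a mark of active promoters and enhancers) and H3K4me1 (a mark of enhancers and promoter flanks). Both factors were delivered by retrovirus, per the study's methods.

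Each target had 1 merged library per arm. No difference between arms could therefore be set against the spread between cultures, and no test between arms was made. The lists held 30859 to 74782 peaks. Intervals are 95% intervals that cover counting error, or the spread between regions, only. Summit height is the number of tags piled up at a peak's summit. It was not scaled to depth, which was unknown, so a gap between a peak and no peak can lie close to the calling limit, where the lowest heights in the lists were 6 to 8 tags. Fibroblast identity was checked with H3K27ac at promoters. Peaks were present at 9 of 10 fibroblast markers in both arms, all but Prrx1, with heights up to 49 tags in NanogWT and 50 in NanogBiD. Of 8 markers of macrophages and other blood cells, 2 (Csf1r and Cd68) had a peak in NanogWT and 3 (these and Ptprc) in NanogBiD, with heights from 0 to 36 tags and from 0 to 34. Spi1, Itgam, Adgre1, Lyz2 and Tyrobp were without a peak in both. Of 4 endothelial markers, 1 had a peak in NanogWT and 3 in NanogBiD, with heights from 0 to 16 tags and from 0 to 20, and Pecam1 had none. The part of such cells in the differences below was not tested.

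As background, viral nucleic acid is detected in the cytoplasm by RIG-I (Ddx58) and MDA5 (Ifih1), which signal through MAVS, and at membranes by Toll-like receptors. These routes activate IRF3 and IRF7 and lead to the release of type I interferon. Interferon binds its receptor chains and activates STAT proteins, which join IRF9 and bind interferon-stimulated response elements (ISREs) in the promoters of antiviral genes. Interferon gamma acts through its own receptor and through GAS elements. Fibroblasts carry this machinery and keep many of its genes ready for induction, whereas pluripotent cells are known for a weak interferon response.

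The ISRE-type element was far more frequent in the members' promoters than among all genes with a promoter window. The members were listed by name as interferon response genes, so this excess describes the list and not the CUT&Tag data. The element was searched as GAAANNGAAA on both strands, in promoter windows of RefSeq (build GRCm38.p6). The windows run from 250 bases before a start site to 50 after it. A window was given for 31 of the 36 members, not for Tlr4, Mx1, Mx2, Usp18 and Nlrc5. A match was present for 13 of these 31 (41.9%, interval 26.4 to 59.2%), against 3.99% of the 27025 genes with a window. Matches were found in 8 of 11 antiviral effectors (Isg15, Ifit1, Ifit3, Rsad2, Bst2, Ifitm2, Ifitm3 and Eif2ak2), 2 of 4 sensors (Ifih1 and Ddx58), Irf2, Stat2 and B2m, and in none of the 4 receptor chains. The GAS-type element, searched as TTCNNNGAA, matched in 10 of 31 members (32.3%, interval 18.6 to 49.9%) and in 9.55% of all genes. GAS-type matches were present for Irf1, Irf2, Irf8, Ifnar1, Ifnar2, Isg20, Ifit2, Bst2, Ifitm3 and Eif2ak2. A match describes letters only and is no evidence that a factor was bound.

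The promoters of Isg15, Ifit3, Rsad2 and Bst2 are shown as those of antiviral effectors that held an ISRE-type match and had a FLAG or BRG1 promoter region in NanogBiD only. Ifit1 is given in part, and Stat2 and Ddx58, which are not effectors, met the same criteria and are not printed. The 250 bases before the start site are printed 5′ to 3′ on the strand of the gene, from RefSeq, with matches and their overlaps in capitals. They lie at chr4:156200819-156201068 (minus strand), chr19:34583279-34583528 (plus strand), chr12:26456453-26456702 (minus strand) and chr8:71537473-71537722 (minus strand).
Isg15: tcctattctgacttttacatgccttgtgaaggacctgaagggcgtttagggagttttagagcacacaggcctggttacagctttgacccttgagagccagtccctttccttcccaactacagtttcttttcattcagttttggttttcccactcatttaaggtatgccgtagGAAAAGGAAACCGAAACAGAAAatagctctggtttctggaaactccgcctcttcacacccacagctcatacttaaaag
Ifit3: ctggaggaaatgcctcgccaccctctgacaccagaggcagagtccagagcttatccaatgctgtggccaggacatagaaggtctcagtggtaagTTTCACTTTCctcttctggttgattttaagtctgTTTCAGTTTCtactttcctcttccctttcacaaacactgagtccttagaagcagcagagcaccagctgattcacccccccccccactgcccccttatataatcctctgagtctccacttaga
Rsad2: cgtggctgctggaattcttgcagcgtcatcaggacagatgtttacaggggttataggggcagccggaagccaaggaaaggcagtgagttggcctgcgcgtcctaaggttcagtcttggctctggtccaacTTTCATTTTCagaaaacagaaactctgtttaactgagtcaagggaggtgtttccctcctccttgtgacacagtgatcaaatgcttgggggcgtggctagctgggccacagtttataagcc
Bst2: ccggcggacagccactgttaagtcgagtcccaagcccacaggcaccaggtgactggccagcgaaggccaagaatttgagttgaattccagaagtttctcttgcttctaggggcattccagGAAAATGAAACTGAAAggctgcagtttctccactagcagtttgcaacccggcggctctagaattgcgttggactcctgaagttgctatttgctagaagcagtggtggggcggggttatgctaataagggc
Isg15 held 3 overlapping matches, Ifit3 and Bst2 held 2 each, and Rsad2 held 1. Ifit1 also held 2 matches, in a window that overlaps untranslated sequence and is not printed whole. The stretch around its first match read as follows, and its last capital is the first base of the second match.
Ifit1: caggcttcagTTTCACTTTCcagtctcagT

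The first comparison asked which members carried each target at their own promoters, taken as 2 kb either side of any annotated transcript start of the gene. Most did, in both arms and for every target. FLAG peaks were present at the promoters of 29 of 36 members in NanogWT (80.6%, interval 65.0 to 90.2%) and 32 in NanogBiD (88.9%, interval 74.7 to 95.6%). Among all protein-coding genes the shares were 55.2% and 56.8%. BRG1 peaks were present at 28 members in NanogWT (77.8%) and 33 in NanogBiD (91.7%), against 53.9% and 55.5% of all genes. H3K27ac peaks were present at 33 members in each arm (91.7%, interval 78.2 to 97.1%), against 57.1% and 59.9%. H3K4me1 peaks were present at 31 members in NanogWT (86.1%) and 32 in NanogBiD (88.9%), against 63.3% and 62.0%. Irf5, Irf8 and Ifitm1 were the only members with no FLAG, BRG1 or H3K27ac peak at their promoters in either arm. IRF8 is a factor of myeloid and lymphoid cells. H3K4me1 was absent in both arms at Ifit1, Ifitm1 and B2m.

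Where the arms differed at the level of whole promoters, NanogBiD more often held the FLAG or BRG1 peak in the full lists, but for BRG1 the direction turned with lists of equal length. With every list cut to its 20000 best scores, BRG1 was counted at 27 members in NanogWT and 18 in NanogBiD, and FLAG at 15 and 17. Over all protein-coding loci in that setting, BRG1 promoter peaks numbered 9871 and 7406 (ratio 0.75), and FLAG promoter peaks 6432 and 5688. The values that follow are for the full lists. FLAG peaks were present in NanogBiD and not in NanogWT at 4 members, Isg15, Ifit1, Bst2 and Tlr4 (background 5.31% of genes), and the reverse was seen at 1, Nlrc5 (background 3.74%). BRG1 peaks were present in NanogBiD and not in NanogWT at 5 members, Ifit1, Ifit3, Bst2, Tlr4 and Nlrc5 (background 5.15%), and the reverse at 0 (background 3.61%). H3K27ac differed in this way at no member, with backgrounds of 4.29% of genes for NanogBiD alone and 1.44% for NanogWT alone. H3K4me1 was present in NanogBiD alone at 2 members, Irf1 and Ifitm2 (background 4.24%), and in NanogWT alone at 1, Ifit3 (background 5.5%). In NanogBiD the heights at these promoters were 9 to 25 tags for FLAG and 10 to 15 tags for BRG1. The medians over all members with a NanogBiD promoter peak were 20.5 and 17 tags, and over all such genes 20 and 17. All but the FLAG peak of Isg15 lay below these medians. The NanogWT FLAG peak of Nlrc5 had 8 tags, beside a member median of 18. The genes that differed are few. For FLAG, BRG1 or both, 6 members were concerned, and the share of all genes was not counted for this union. Of the 6, Isg15, Ifit1, Ifit3 and Bst2 are antiviral effectors with an ISRE-type match, and Tlr4 and Nlrc5 had no window to search. Among all antiviral effectors with a window 8 of 11 held a match, and a link between matches and arms was not tested. H3K27ac was present at all 6 in both arms.

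**Figure D1:**
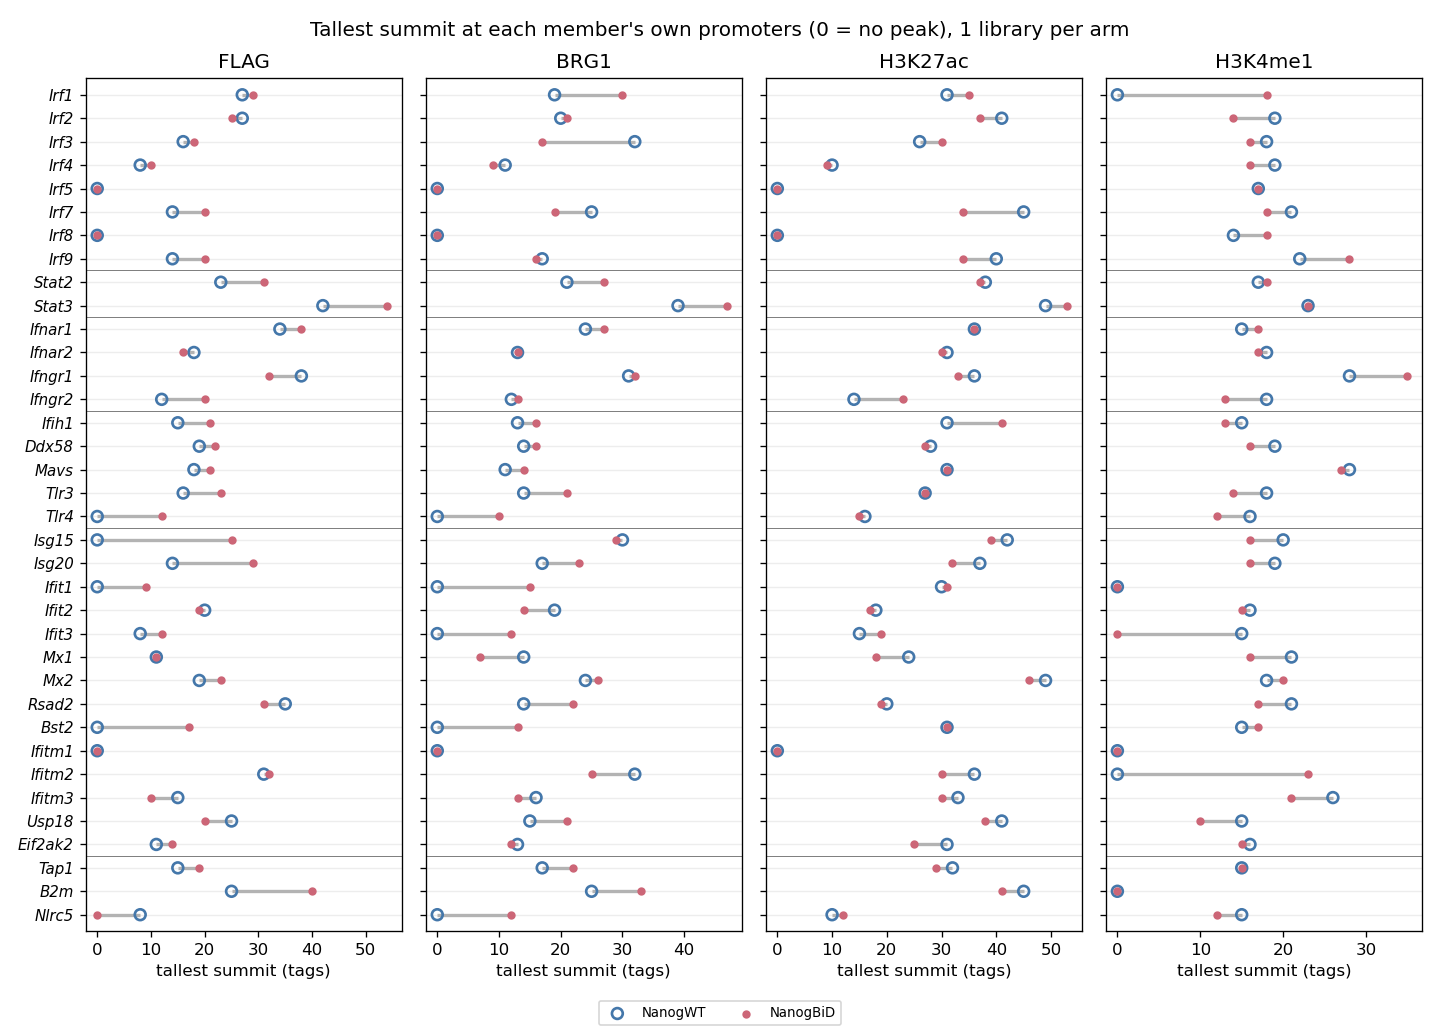
Tallest summit, in tags, at the own promoters of each of the 36 members for the 4 targets, with NanogWT as open circles and NanogBiD as filled circles joined by a grey line (1 library per arm, 0 means no peak; horizontal lines separate the role groups). H3K27ac was present at 33 members in both arms, whereas FLAG was present in NanogBiD alone at Isg15, Ifit1, Bst2 and Tlr4.

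Promoter regions were then compared one by one, since a gene with several start sites can hold several regions. Overlapping or touching peaks of the 2 arms were joined into a region, which was called shared if both arms had a peak in it. For FLAG, 31 of 45 member promoter regions were shared, 11 were in NanogBiD only (24.4%, interval 14.2 to 38.7%, background 17.4%) and 3 in NanogWT only (6.67%, interval 2.29 to 17.9%, background 10.9%). For BRG1, 28 of 39 were shared, 10 were in NanogBiD only (25.6%, interval 14.6 to 41.1%, background 18.5%) and 1 in NanogWT only (2.56%, background 9.3%). For H3K27ac, 36 of 38 were shared (94.7%, interval 82.7 to 98.5%, against 81.3% at all loci), with 1 in NanogBiD only, at Ddx58 (2.63%, background 12.3%), and 1 in NanogWT only, at Stat2 (background 6.44%). For H3K4me1, 32 of 48 were shared, 10 were in NanogBiD only (20.8%, background 11.5%) and 6 in NanogWT only (12.5%, background 19.2%). Each interval of a FLAG or BRG1 one-arm share held the background value. With lists of equal length the BRG1 shares turned to 0% in NanogBiD only and 35.7% in NanogWT only. BRG1 promoter peaks over all loci turned there too (9871 in NanogWT and 7406 in NanogBiD, ratio 0.75). The backgrounds above are for the full lists, and none is given for the other settings of this paragraph. With summit windows of 100 bp in place of whole peaks, the H3K27ac shares were 26.7% in NanogBiD only and 22.2% in NanogWT only, so the high shared share held for whole peaks. In that setting the shares in NanogWT only were 21.2% for FLAG, 17.1% for BRG1 and 28.1% for H3K4me1. With scores of at least 100, H3K27ac in NanogBiD only was 14.3%. For H3K4me1 the interval in NanogBiD only (11.7 to 34.3%) lay just above its background, but the order of the arms turned in some other settings. The shares were 19.2% in NanogBiD only and 26.9% in NanogWT only with scores of at least 100, and 12.2% and 31.7% with heights of at least 15 tags. The order was kept with lists of equal length (39.1% and 17.4%) and promoters of 1 kb (25% and 7.5%). It was also kept with summit windows of 100 bp (33.3% and 28.1%) and merging across 500 bp (17% and 12.8%).

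The heights added a second description. At the 28 members with a FLAG promoter peak in both arms, the summit was taller in NanogBiD at 20 (71.4%) and lower at 7, with a median log2 ratio of NanogBiD over NanogWT of 0.25 (interval 0.05 to 0.43). Over all genes 58.1% were taller in NanogBiD, and the median was 0.11. BRG1 was taller in NanogBiD at 17 of 28 members (60.7%, against 43.5% of genes). Its median log2 ratio was 0.115 (interval -0.09 to 0.35), and the interval held the 0.000 of all genes. H3K27ac went the other way from the background. It was lower in NanogBiD at 21 of 33 members (63.6%, against 33.6% of genes), with a median log2 ratio of -0.08 (interval -0.13 to 0.00) beside 0.07 for all genes. Among 55 other interferon and innate genes, described below, H3K27ac was also lower at 24 of 43 (55.8%, median -0.07, interval -0.14 to 0.12). The direction was thus not particular to the members. H3K4me1 was lower in NanogBiD at 20 of 30 members (66.7%, against 62.9% of genes). The differences are fractions of a log2 unit between single libraries.

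Among the IRF factors, FLAG, BRG1 and H3K27ac were present at the same 6 promoters in both arms. Irf1, an early activator of interferon-induced genes, had a FLAG summit of 27 tags in NanogWT and 29 in NanogBiD, and a BRG1 summit of 19 and 30. Its H3K27ac summit was 31 tags in NanogWT and 35 in NanogBiD, while H3K4me1 had no peak in NanogWT and one of 18 tags in NanogBiD. Only the enhancer mark thus differed in presence there. Irf7, the amplifier of type I interferon production, had FLAG summits of 14 and 20 tags, BRG1 summits of 25 and 19 and H3K27ac summits of 45 and 34. Irf9, the partner of STAT proteins at ISREs, had FLAG summits of 14 and 20 tags, BRG1 summits of 17 and 16 and H3K27ac summits of 40 and 34. FLAG and H3K27ac thus differed in opposite directions at these genes. Irf3, the factor activated first by the sensors, had FLAG summits of 16 and 18 tags and a BRG1 summit of 32 in NanogWT against 17 in NanogBiD. Irf4, a lymphoid factor, had low summits of 8 and 10 tags for FLAG, 11 and 9 for BRG1 and 10 and 9 for H3K27ac. Irf2 had FLAG summits of 27 and 25 tags and H3K27ac summits of 41 and 37. At Irf9 the H3K4me1 peaks of the arms lay at different start sites, with 22 tags in NanogWT only and 28 in NanogBiD only. At Irf8, which lacked the other targets, H3K4me1 summits were 14 and 18 tags, with a separate region of 11 tags in NanogBiD only.

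STAT factors and receptors were bound in both arms. Stat3, which carries the signal of LIF and interleukins as well as interferons, had the tallest FLAG promoter summits of all members in each arm, with 42 tags in NanogWT and 54 in NanogBiD. BRG1 there reached 39 and 47 tags and H3K27ac 49 and 53. Of its further start sites, some held FLAG regions of 11 and 12 tags in NanogBiD only, and BRG1 was split between arms, with 13 tags in NanogWT only and 14 tags in NanogBiD only at different sites. Stat2, the subunit that gives the interferon complex its activation domain, had FLAG summits of 23 and 31 tags and BRG1 summits of 21 and 27. The type I receptor chains had FLAG summits of 34 and 38 tags (Ifnar1) and 18 and 16 (Ifnar2). The interferon gamma receptor chains had 38 and 32 tags (Ifngr1) and 12 and 20 (Ifngr2). At Ifngr2 the shared FLAG region lay inside the gene, and a FLAG region over the start site was present in NanogBiD only, with 16 tags. BRG1 was the reverse, shared over the start site with 12 and 13 tags and with a region of 13 tags further inside the gene in NanogBiD only. Its H3K27ac summit was 14 tags in NanogWT and 23 in NanogBiD.

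The sensors were occupied at low to moderate height. Ddx58, which encodes RIG-I, had promoter FLAG summits of 19 and 22 tags, BRG1 summits of 14 and 16 and H3K27ac summits of 28 and 27 at its tallest sites. Further promoter regions of Ddx58 were in NanogBiD only, with 13 tags of FLAG, 16 of H3K27ac and 13 of H3K4me1. Ifih1, which encodes MDA5, had FLAG summits of 15 and 21 tags and H3K27ac summits of 31 and 41. Mavs had FLAG summits of 18 and 21 tags and H3K27ac summits of 31 in both arms. Tlr3, the receptor of double-stranded RNA, had FLAG summits of 16 and 23 tags and BRG1 summits of 14 and 21. Tlr4, the receptor of bacterial lipopolysaccharide, was different. No FLAG or BRG1 peak was called at its promoter in NanogWT, and NanogBiD had a FLAG peak of 12 tags, 623 bp downstream of a start site, and a BRG1 peak of 10 tags beside it. H3K27ac there was 16 tags in NanogWT and 15 in NanogBiD.

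Among the 14 antiviral effectors and feedback genes, Isg15, Ifit1, Ifit3 and Bst2 differed in the presence of a FLAG or BRG1 promoter peak, and Ifit3 and Ifitm2 in that of H3K4me1. Isg15, a ubiquitin-like modifier, had no FLAG peak within its 2 kb promoter in NanogWT and one of 25 tags in NanogBiD. Its summit lay at -1833 bp from the start site, nearer to the start of the neighbouring AW011738, with a BRG1 peak of 19 tags in NanogBiD only beside it. A separate BRG1 region at the other end of the gene, near the start of Agrn, was shared, with 30 and 29 tags. A FLAG region there was shared too, with 28 and 31 tags, but lay beyond the 2 kb limit of Isg15. H3K27ac there was 42 tags in NanogWT and 39 in NanogBiD. The H3K27ac region over the NanogBiD-only FLAG and BRG1 peaks was also shared, with 22 and 29 tags. The ISRE-type matches of Isg15 printed above were thus not under its FLAG summit. Ifit1, an RNA-binding inhibitor of viral translation, had no FLAG and no BRG1 promoter peak in NanogWT. In NanogBiD FLAG reached 9 tags, with its summit at -237 bp from a start site, and BRG1 15 tags, at -153 bp. Both summits lay in an exon of Ifit1bl2 and nearer to a start of that gene, at 0.109 kb for FLAG and 0.025 kb for BRG1, while H3K27ac was 30 and 31 tags in the arms. Ifit3, a partner of IFIT1, had FLAG summits of 8 and 12 tags, no BRG1 peak in NanogWT against 12 tags in NanogBiD, and an H3K4me1 peak of 15 tags in NanogWT against none. Ifit2 showed no such difference, with FLAG summits of 20 and 19 tags and BRG1 summits of 19 and 14.

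Bst2, or tetherin, which holds budding virus at the cell surface, had no FLAG promoter peak in NanogWT and promoter regions of 13 and 17 tags in NanogBiD. The lower of these lay over the start site, with its summit at -37 bp. BRG1 was absent from the promoter in NanogWT and reached 13 tags in NanogBiD, under the FLAG region inside the gene, and H3K27ac was 31 tags in both arms. Rsad2, which encodes viperin, had a shared FLAG region in an intron, with 35 and 31 tags, and a region in NanogBiD only over a start site, with 23 tags and a summit at -81 bp. There BRG1 was shared, with 14 and 22 tags, and in the intron BRG1 had 20 tags in NanogBiD only. Isg20, an exonuclease, had FLAG summits of 14 and 29 tags and H3K27ac summits of 37 and 32. Usp18, which removes ISG15 and dampens signalling, had FLAG summits of 25 and 20 tags, and Eif2ak2, the kinase PKR, 11 and 14. Mx1 and Mx2, dynamin-like GTPases, had FLAG summits of 11 in both arms and of 19 and 23 tags. The Ifitm genes, which block viral entry, were uneven. Ifitm2 had FLAG summits of 31 and 32 tags and an H3K4me1 peak in NanogBiD only, of 23 tags, while Ifitm3 had a shared FLAG region of 10 tags in each arm and one of 15 tags in NanogWT only.

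In antigen presentation, B2m, the light chain of class I molecules, had FLAG summits of 25 tags in NanogWT and 40 in NanogBiD and BRG1 summits of 25 and 33. Its H3K27ac summits were 45 and 41 tags. Tap1, the peptide transporter subunit, had FLAG summits of 15 and 19 tags and BRG1 summits of 17 and 22. Nlrc5, the transactivator of class I genes, was the only member with a FLAG promoter peak in NanogWT alone, of 8 tags, at -228 bp. Its BRG1 peak was in NanogBiD alone, of 12 tags, at a different start site inside the gene. A FLAG peak of 18 tags in NanogBiD only lay at the same place, just beyond the 2 kb limit.

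The second comparison asked about sites away from any annotated start. At the member loci as a whole, FLAG peaks numbered 101 in NanogWT and 119 in NanogBiD (ratio 1.18, interval 0.90 to 1.55), beside a ratio of 1.24 over all protein-coding loci. BRG1 peaks numbered 69 and 101 (1.46, interval 1.07 to 2.02), beside 1.56. H3K27ac peaks numbered 83 and 93 (1.12, interval 0.82 to 1.52), beside 1.159. H3K4me1 peaks numbered 129 and 101 (0.78, interval 0.60 to 1.02), beside 0.80. Each member ratio was on the same side of 1 as that of all loci, and the lists were of unequal length. When every list was cut to its 20000 best scores, the BRG1 ratio at member loci was 0.636 (55 and 35 peaks, interval 0.40 to 0.99), and that over all protein-coding loci 0.9. The H3K4me1 ratio was 1.09 in the same setting. Both directions thus held for the full lists and not for lists of equal length.

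Promoters of other genes within the loci held 29 FLAG peaks in each arm. In the full lists the distal BRG1 and H3K4me1 ratios lay further from 1 than those of all peaks at the member loci. Distal BRG1 peaks numbered 15 in NanogWT and 37 in NanogBiD (ratio 2.47, interval 1.32 to 4.84), beside 2.01 at all loci. Distal H3K4me1 peaks numbered 49 and 25 (0.51, interval 0.30 to 0.84), beside 0.74. Distal FLAG peaks numbered 37 and 48 (1.30, beside 1.32), and distal H3K27ac peaks 20 and 26 (1.3, beside 1.25). Each interval held the value of all loci. With lists of equal length the distal BRG1 peaks were 7 in NanogWT and 5 in NanogBiD (0.714, interval 0.18 to 2.61), the other direction, beside 1.14 at all loci. Distal H3K4me1 peaks were then 11 and 10 (0.909, beside 0.902), H3K27ac peaks 6 in each arm and FLAG peaks 6 and 8 (1.33, beside 1.04).

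As regions, 27 of 58 distal FLAG regions were shared, 21 were in NanogBiD only (36.2%, background 37.3%) and 10 in NanogWT only (17.2%, background 17.3%). The first share was 60% with heights of at least 15 tags, and the second 29% with scores of at least 100. No share of all loci is given for these FLAG settings, so they cannot be set against a background. For BRG1, 10 of 42 were shared, 27 were in NanogBiD only (64.3%, interval 49.2 to 77.0%, background 56.3%) and 5 in NanogWT only (11.9%, background 11.5%). With lists of equal length these BRG1 shares turned to 22.2% and 44.4%. The shares of all loci are not given for that setting, where distal BRG1 peaks over all loci numbered 6116 in NanogWT and 6969 in NanogBiD. For H3K27ac, 15 of 30 were shared, 11 were in NanogBiD only (36.7%, background 35.9%) and 4 in NanogWT only (13.3%, background 19.5%). For H3K4me1, 18 of 55 were shared, 7 were in NanogBiD only (12.7%, background 18.7%) and 30 in NanogWT only (54.5%, interval 41.5 to 67.0%, background 40.3%). Among these distal shares, H3K4me1 in NanogWT only was the one whose interval lay wholly above the background, and by a narrow margin. It did not keep this under most other settings. It was 37.5% (interval 18.5 to 61.4%) with lists of equal length, where all loci had 35.6%, and 43.2% (interval 34.4 to 52.5%) with 50 kb either side, where all loci had 39.7%. The interval also held the share of all loci in the same setting with 10 kb either side (51.4%, against 40.8%), promoters of 1 kb (49.3%, against 40.4%), scores of at least 100 (58.3%, against 51.9%) and heights of at least 15 tags (63%, against 56.6%). It lay above that share with summit windows of 100 bp (60%, against 46.9%) and with merging across 500 bp (54.5%, against 39%). The nearest start site, among those of protein-coding genes and Mx2, belonged to a member for 70.7 to 76.7% of the distal regions, depending on the target.

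**Figure D2:**
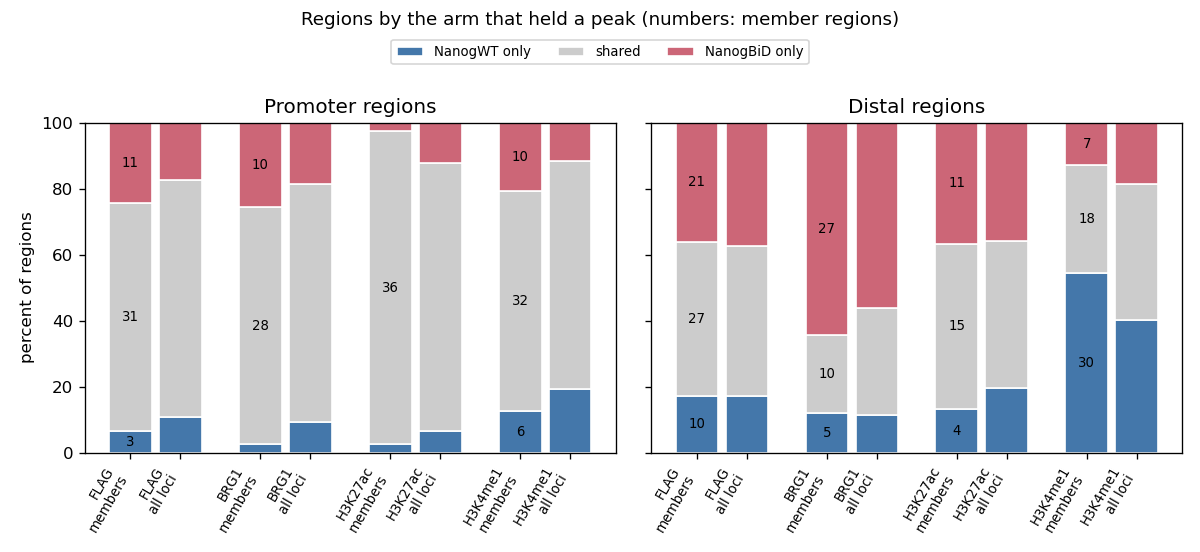
Percent of promoter regions (left) and distal regions (right) with a peak in NanogWT only, in both arms or in NanogBiD only, for each target at the member loci and at all protein-coding loci (numbers in the bars count member regions; 1 library per arm). In the full lists FLAG and H3K27ac distal shares lay close to those of all loci, and H3K4me1 held 30 of 55 regions in NanogWT only.

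Counted gene by gene, 12 members had more distal FLAG peaks in NanogBiD (background 33.5% of genes) and 3 had fewer (background 10.8%). For BRG1, 14 had more (background 34.4%) and 2 had fewer (background 6.18%). For H3K27ac, 8 had more (background 21.7%) and 5 fewer (background 10.5%). For H3K4me1, 4 had more (background 12.1%) and 18 fewer (background 33.4%). H3K4me1 was the target with the most members in 1 direction in these full lists. FLAG and BRG1 distal peaks summed together were more numerous in NanogBiD at 20 members (background 43.5% of genes), fewer at 5 (background 9.96%), equal at 5 and absent at 6. With lists of equal length the sum was greater in NanogBiD at 5 members, fewer at 5, equal at 2 and absent at 24, beside 14.7% and 14.3% of all genes with more and with fewer.

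**Figure D3:**
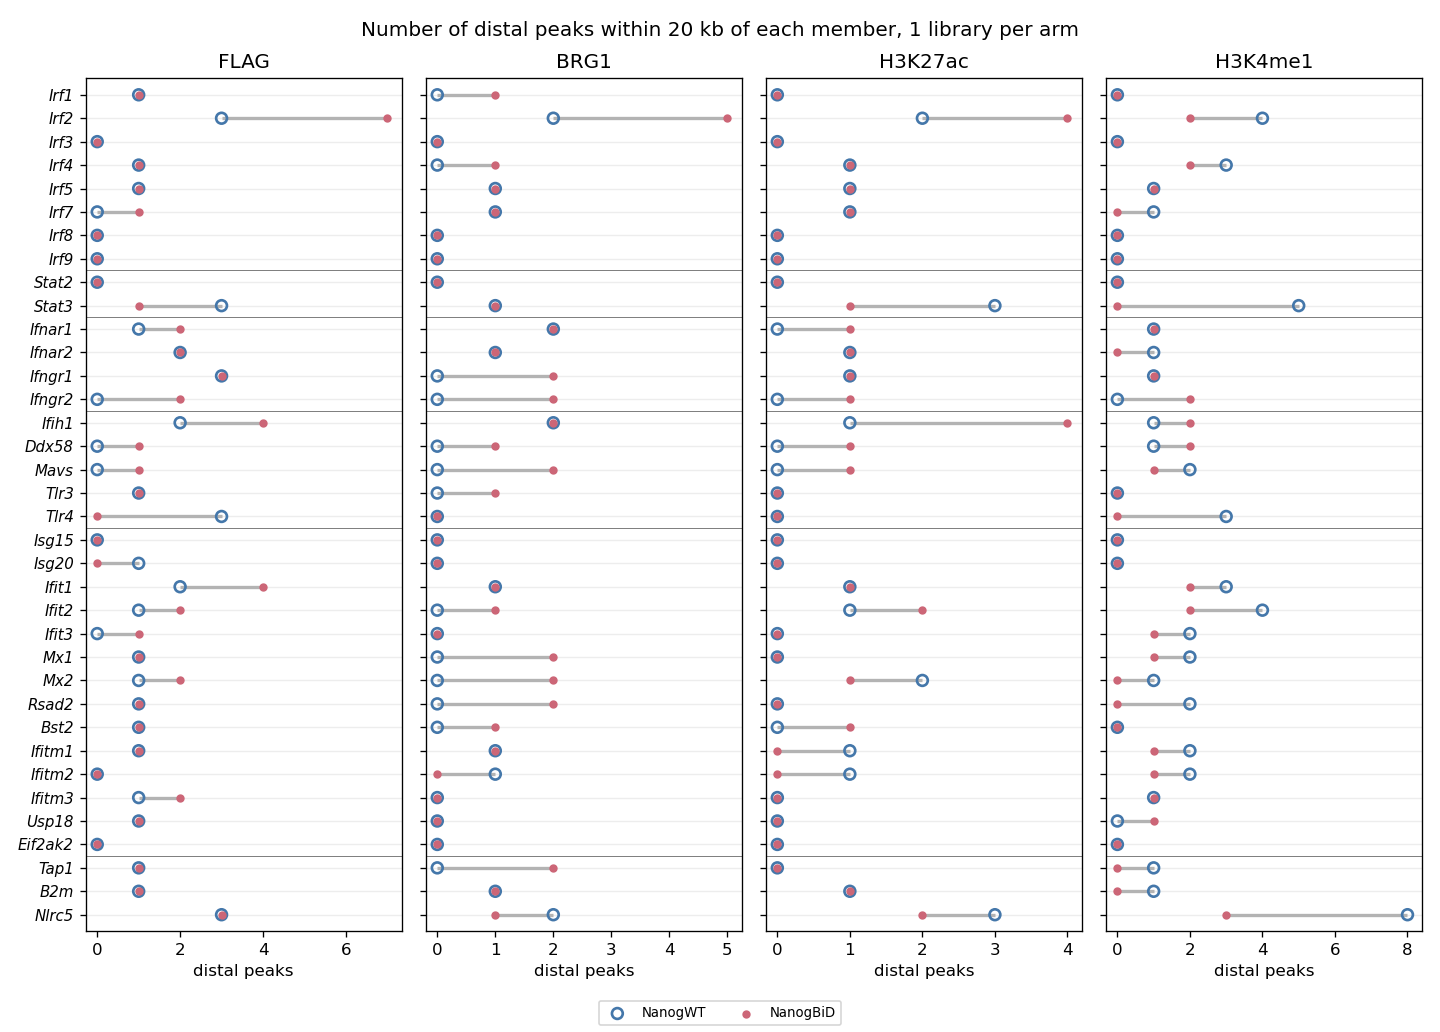
Number of distal peaks within the gene body and 20 kb either side of each of the 36 members for the 4 targets, with NanogWT as open circles and NanogBiD as filled circles joined by a grey line (1 library per arm). In the full lists Irf2 had the largest difference for FLAG and BRG1 together, with 3 and 7 FLAG peaks and 2 and 5 BRG1 peaks, while H3K4me1 was lower in NanogBiD at 18 members.

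Irf2, which competes with IRF1 at the same DNA element, had the largest difference in number in the full lists. It is a long gene, of 107.7 kb against a member median of 15.64 kb, and with lists of equal length it held 3 such peaks in each arm. In the full lists its 7 distal FLAG peaks and 5 distal BRG1 peaks in NanogBiD stood against 3 and 2 in NanogWT. The tallest was in an intron at chr8:46780160-46782263, shared by all 4 targets, with FLAG summits of 22 tags in NanogWT and 38 in NanogBiD and BRG1 summits of 17 and 24. H3K27ac there was 19 and 25 tags and H3K4me1 17 in both arms. A second intronic site, at chr8:46827020-46829360, had FLAG summits of 25 and 35 tags, with BRG1 (15 tags) and H3K27ac (13 tags) in NanogBiD only and H3K4me1 (12 tags) in NanogWT only. Another, at chr8:46766980-46767946, had FLAG (26 tags) and BRG1 (9 tags) in NanogBiD only and no mark. Distal H3K4me1 peaks of Irf2 numbered 4 in NanogWT and 2 in NanogBiD.

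**Figure D4:**
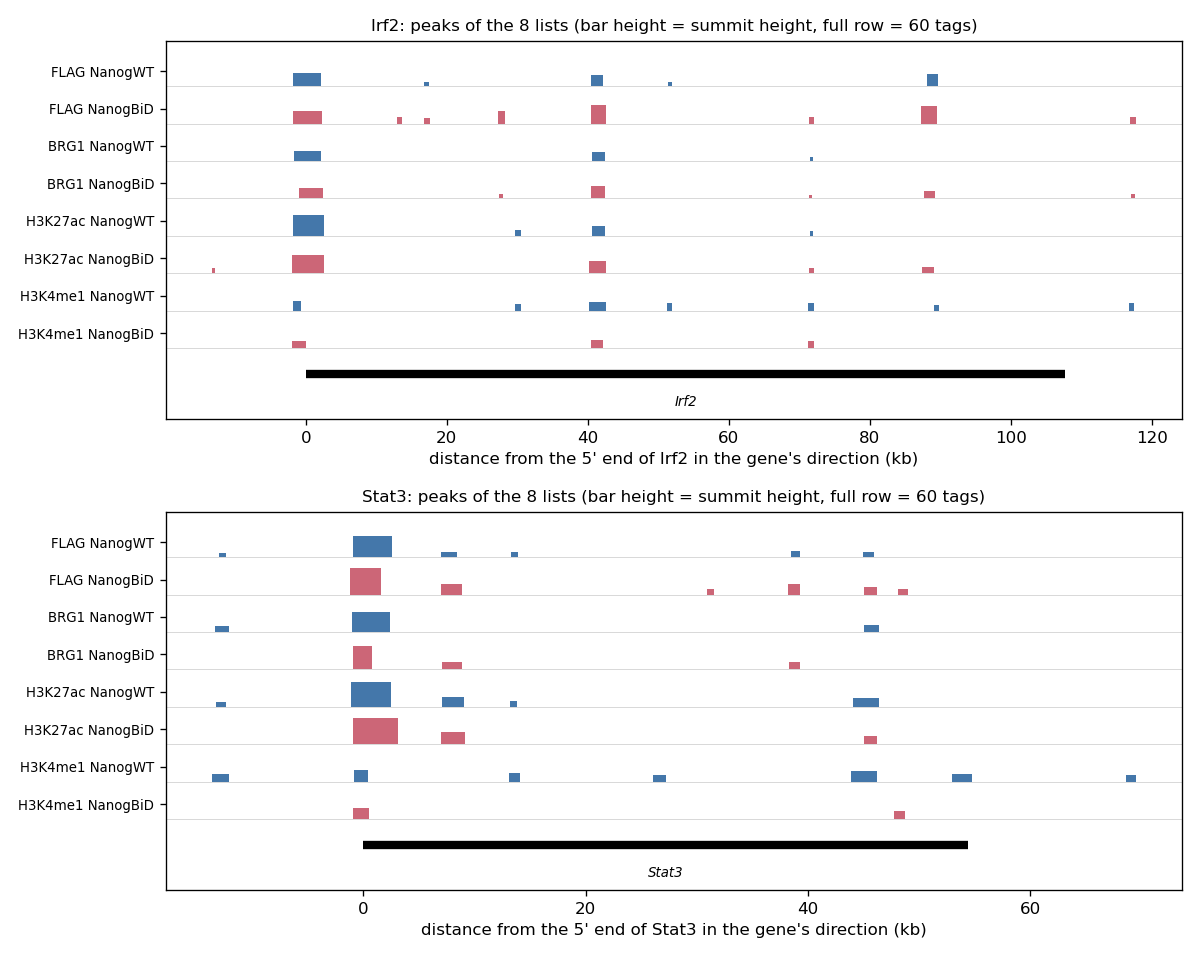
Peaks of the 8 lists at Irf2 (top) and Stat3 (bottom), placed by distance in kb from the 5′ end of the gene, with bar width as peak width and bar height as summit height (a full row is 60 tags; NanogWT blue, NanogBiD red; black bars are gene bodies). In the full lists Irf2 held more FLAG and BRG1 peaks in NanogBiD, whereas Stat3 had 5 distal H3K4me1 peaks in NanogWT and 0 in NanogBiD. With lists of equal length Irf2 held 3 distal FLAG and BRG1 peaks in each arm.

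Distal FLAG and BRG1 peaks together were fewer in NanogBiD at Tlr4 (3 against 0) and at Stat3 (4 against 2) in the full lists. With lists of equal length they numbered 1 against 0 at Tlr4 and 0 against 1, the other direction, at Stat3. At Stat3 distal FLAG peaks numbered 3 in NanogWT and 1 in NanogBiD, BRG1 peaks 1 in each, H3K27ac peaks 3 and 1, and H3K4me1 peaks 5 and 0. A site at chr11:100951641-100952917, upstream of the gene, was the only distal region at any member with both FLAG and BRG1 in NanogWT only. It held 9 tags of FLAG, 11 of BRG1, 9 of H3K27ac and 15 of H3K4me1 in NanogWT and none of these in NanogBiD. One intronic site went against this, with FLAG summits of 11 and 21 tags, BRG1 in NanogBiD only (15 tags) and H3K27ac of 19 and 24 tags. Tlr4 had 3 distal FLAG peaks of 10 to 13 tags and 3 distal H3K4me1 peaks of 10 to 14 tags in NanogWT, and none of either in NanogBiD. The promoter and distal FLAG peaks of Tlr4 thus lay in different arms. Nlrc5 had 8 distal H3K4me1 peaks in NanogWT and 3 in NanogBiD, with 3 distal FLAG peaks in each. Isg20 and Ifitm2 had 1 distal FLAG or BRG1 peak less in NanogBiD.

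Ddx58 had the tallest distal site with FLAG and BRG1 in NanogBiD only, by the lower of their summits. In an intron of the gene, 4.938 kb from the nearest start site, all 4 targets had a peak in NanogBiD and none in NanogWT, with 27 tags of FLAG, 16 of BRG1, 17 of H3K27ac and 15 of H3K4me1. Ifngr2 had 4 distal FLAG and BRG1 peaks in NanogBiD and 0 in NanogWT. They fell at 2 sites, one in an exon of the gene (FLAG 21 tags, BRG1 10, H3K4me1 18) and one in an exon of the neighbouring Tmem50b with all 4 targets (15, 14, 12 and 12 tags). Mavs had 3 such peaks against 0, among them a site with FLAG and BRG1 of 11 tags each and H3K27ac of 13 in NanogBiD only, where H3K4me1 was present in both arms (17 tags in NanogWT, 13 in NanogBiD). Mx2 had 4 against 1, Ifih1 6 against 4, and Ifit1, Ifngr1, Ifit2, Mx1, Rsad2 and Tap1 each had 2 more. These counts are for the full lists. With lists of equal length Ifih1 turned to 0 in NanogBiD against 2 in NanogWT. Ddx58 then had 2 against 0, Ifngr1 1 against 0 and Ifit1 2 in each arm. Ifngr2, Mavs, Mx2, Ifit2, Mx1, Rsad2 and Tap1 had 0 in both arms. At Ifngr1 the tallest distal FLAG summit was 20 tags in NanogWT and 30 in NanogBiD. Tap1 went the other way at its tallest site, inside Tap2, with 23 tags in NanogWT and 10 in NanogBiD, where BRG1 had 9 tags in NanogBiD only. Bst2 had a distal site at chr8:71530476-71531544, nearest to the start of Ccdc194, with FLAG summits of 14 and 22 tags and with BRG1 (17 tags) and H3K27ac (32 tags) in NanogBiD only.

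Windows around 3 FLAG summits are shown. Ddx58 and Mavs are among the 4 NanogBiD-only regions with FLAG and BRG1 whose lower summit was greatest, and Stat3 has the only such region in NanogWT. The Ddx58 intron (chr4:40233244-40233344), the site downstream of Mavs (chr2:131254003-131254103) and the site upstream of Stat3 (chr11:100952297-100952397) are printed from the plus strand of mm10. The capitals in the Ddx58 window mark an AP-1 match, TGACTCA on either strand, and the other windows held no match to the 4 motifs searched.
Ddx58: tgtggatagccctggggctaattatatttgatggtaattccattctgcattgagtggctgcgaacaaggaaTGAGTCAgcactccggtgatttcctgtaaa
Mavs: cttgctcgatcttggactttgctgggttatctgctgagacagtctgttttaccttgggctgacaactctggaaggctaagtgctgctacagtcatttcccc
Stat3: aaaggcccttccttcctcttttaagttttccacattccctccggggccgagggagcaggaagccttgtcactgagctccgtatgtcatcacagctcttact
The sites at Tmem50b and in an exon of Rsad2 (FLAG and BRG1 of 13 tags each in NanogBiD only) lie in untranslated sequence and are not printed.

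ISRE-type matches were rare at the distal sites. Within 50 bp of the tallest FLAG summit, 1 of 58 distal member regions held a match (1.72%, interval 0.31 to 9.14%), against 1.14% of the 41429 distal FLAG regions at all loci. The match was at the NanogBiD-only site in an exon of Ifngr2 (chr16:91565073-91565102), where the bases around it read as follows, with the match in capitals.
Ifngr2: acgcccagagGAAACAGAAAagcagtttta
At promoters 3 of 45 FLAG regions held a match (6.67%, interval 2.29 to 17.9%), against 0.824% of 16861. GAS-type matches were present at 2 of 58 distal regions (3.45%, against 3.52%) and at 3 of 45 promoter regions (6.67%, against 2.22%). AP-1 matches were present at 7 of 58 distal regions (12.1%, interval 5.97 to 22.9%, against 7.81%), and the OCT octamer ATGCAAAT at 1 of 58 (1.72%, against 2.43%).

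The Ifit cluster held both kinds of site. Ifit1 had 4 distal FLAG peaks in NanogBiD and 2 in NanogWT. The tallest, at chr19:34661135-34663153, lay beyond the end of the gene and was shared, with FLAG summits of 30 and 33 tags and BRG1 of 28 and 26. It carried H3K27ac (21 and 23 tags) and H3K4me1 (19 and 15 tags) in both arms. Other sites of the cluster differed between arms. The promoter of Ifit1 held H3K27ac in both arms and FLAG and BRG1 in NanogBiD only. Distal FLAG regions in NanogBiD only had 12 and 9 tags at Ifit1 and 9 tags inside Ifit3. The promoter of Ifit3 held BRG1 in NanogBiD only, with 12 tags. At a distal site 6.14 kb from the start of Ifit2, FLAG was shared with 10 and 13 tags, whereas BRG1 (10 tags) and H3K27ac (13 tags) were in NanogBiD only. Ifit2 had 4 distal H3K4me1 peaks in NanogWT and 2 in NanogBiD.

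**Figure D5:**
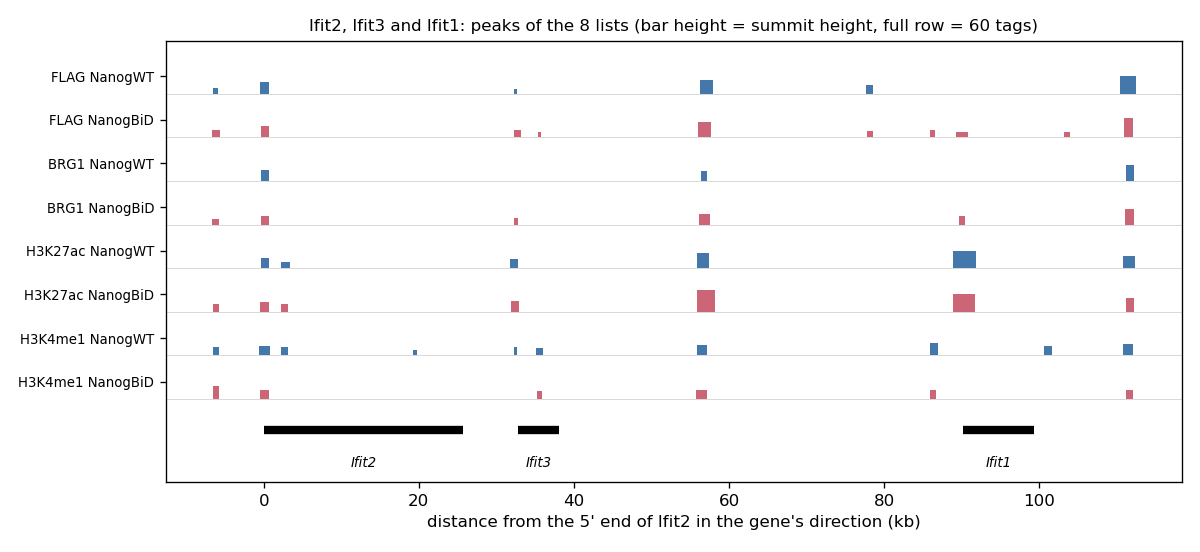
Peaks of the 8 lists across Ifit2, Ifit3 and Ifit1, placed by distance in kb from the 5′ end of Ifit2, with bar width as peak width and bar height as summit height (a full row is 60 tags; NanogWT blue, NanogBiD red; black bars are gene bodies). H3K27ac covered the Ifit1 start in both arms, with FLAG and BRG1 there in NanogBiD only, and the tall FLAG site beyond Ifit1 was present in both arms.

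The third comparison asked how often NANOG and BRG1 lay together. In NanogWT 9 of 37 distal FLAG peaks at member loci overlapped a BRG1 peak (24.3%, interval 13.4 to 40.1%), and in NanogBiD 31 of 48 did (64.6%, interval 50.4 to 76.6%). Over all loci the shares were 35.1% and 60.4%. The BRG1 list was the longer in NanogBiD, with 53748 peaks against 30859, and the part of list length in these shares was not tested. At member promoters the shares were 80.0% of 35 and 83.3% of 42. Promoters and distal sites were thus further apart in NanogWT than in NanogBiD, as over all loci, where the promoter shares were 78.1% and 83.2%. With all 4 lists joined into one set of regions, 27 distal member regions had FLAG in both arms. BRG1 was in NanogBiD only at 14 of these (51.9%, interval 34.0 to 69.3%, against 38.5% at all loci) and in both arms at 6 (22.2%, interval 10.6 to 40.8%, against 39.1%). Joining the lists left 20 distal regions where FLAG was confined to NanogBiD, and BRG1 was confined to it as well at 7 (35.0%, interval 18.1 to 56.7%, background 35.4%), while 9 had no BRG1 (45%, interval 25.8 to 65.8%, against 58.9% at all loci). Of 10 with FLAG in NanogWT only, 9 had no BRG1 (interval 59.6 to 98.2%, which held the 78.4% of all loci).

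Histone marks at these classes differed. At the 7 regions where both factors were confined to NanogBiD, H3K27ac was present at 0 in NanogWT and 3 in NanogBiD, and H3K4me1 at 2 and 4. At the 14 regions with shared FLAG and BRG1 in NanogBiD only, H3K27ac was present at 4 and 8. At the 6 regions with both factors in both arms, H3K27ac was present at 5 in each. At the 9 regions with FLAG alone in NanogWT only, H3K4me1 was present at 4 in NanogWT and 0 in NanogBiD. Over all loci the same classes had H3K27ac at 5.81% and 28.8%, 23.9% and 52.2%, and 80.2% and 87.2% of regions in NanogWT and NanogBiD. H3K4me1 over all loci was present at 23.6% and 34% of regions with both factors confined to NanogBiD, and at 45.6% and 21.9% of those with FLAG alone in NanogWT only.

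Enhancer regions, taken as H3K27ac peaks with an H3K4me1 peak over them in the same arm, numbered 86 at the member loci, promoters included. Of these, 55 were shared (64.0%, interval 53.4 to 73.3%, against 56.1% at all loci), 16 were in NanogBiD only (18.6%, interval 11.8 to 28.1%, background 24.1%) and 15 in NanogWT only (17.4%, interval 10.9 to 26.8%, background 19.7%). The order of these one-arm shares was not stable. In NanogBiD and NanogWT only they were 28.1% and 12.5% with lists of equal length, 26.1% and 30.4% with scores of at least 100, and 9.09% and 23.6% with heights of at least 15 tags. Those in NanogBiD only included the intron of Ddx58, the promoters of Irf1, Irf9, Ifngr2 and the Ifitm2 start, and distal sites at Ifih1, Ifit2, Ifnar1 and Mavs. Those in NanogWT only included 2 distal sites at Stat3, 2 at Nlrc5, and sites at B2m and Irf7. H3K27ac itself was present in both arms at the promoters of Irf1, Irf9, Ifngr2 and Ifitm2 and at the sites of B2m, Irf7 and, for one of its pair, Nlrc5, so there the class came from the H3K4me1 overlap alone. At the Ddx58 intron, at the distal sites of Ifih1, Ifit2, Ifnar1 and Mavs, and at both Stat3 sites, H3K27ac was present in the same single arm.

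At shared distal regions the FLAG summit was taller in NanogBiD at 19 of 27 (median log2 ratio 0.32, interval 0.00 to 0.64, beside 0.18 at all loci). BRG1 was taller in NanogBiD at 5 of 10 (0.07, interval -0.19 to 0.70, beside 0.27), H3K27ac at 9 of 15 (0.13, interval -0.14 to 0.34, beside 0.06) and H3K4me1 at 4 of 18 (-0.18, interval -0.39 to 0.00, beside -0.21). After subtraction of each target's median over all shared regions, the distal member medians were 0.17 (FLAG), -0.07 (BRG1), 0.05 (H3K27ac) and 0.00 (H3K4me1).

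A list of 55 other interferon and innate genes, such as the Oas, Gbp and Psmb families, was set beside the members. FLAG promoter peaks were present at 42 in NanogWT and 41 in NanogBiD, and BRG1 at 46 and 41. FLAG was in NanogBiD alone at 5 of these genes, Oas3, Oasl1, Oasl2, Psmb10 and H2-K1, and in NanogWT alone at 6, Oas1a, H2-D1, Ifi35, Ccl2, Trim21 and Xaf1. BRG1 was in NanogBiD alone at 0 and in NanogWT alone at 5, Zbp1, Tap2, Igtp, Ccl2 and Xaf1. The preponderance of NanogBiD seen for the members in the full lists, with 4 against 1 for FLAG and 5 against 0 for BRG1, was thus not present in this second list, which shares some loci with the members. Where both arms had a FLAG promoter peak it was taller in NanogBiD at 28 of 36 of these genes (77.8%). BRG1 was taller in NanogBiD at 26 of 41 (63.4%) and H3K27ac lower at 24 of 43 (55.8%), the same directions as at the members. Among the oligoadenylate synthetase-like genes, Oasl1 had a FLAG summit of 22 tags and Oasl2 one of 13 tags in NanogBiD, with none in NanogWT, while H3K27ac was 31 and 36 tags at Oasl1 and 32 and 27 at Oasl2. Distal peaks in the list numbered 52 and 71 for FLAG, 31 and 61 for BRG1 and 75 and 62 for H3K4me1. The H3K4me1 ratio of 0.83 (interval 0.58 to 1.17) lay above the 0.51 of the members, and the intervals overlapped.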

How the data were processed

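Each of the 8 CUT&Tag libraries came with deposited peaks and deposited summits. Per the study's methods and the submitters' processing notes, the authors trimmed reads (Trim Galore 0.6.4), aligned them to mm10 (Bowtie2 2.4.5), filtered them (SAMtools 1.16.1), merged replicates and called peaks with no control named (MACS 1.4.2). The study states a minimum number of replicates for all its experiments but not how many entered each of these lists, and the tag totals are not given in the sources used here. The score in the deposited peak lists is the caller's significance score (lowest 50.0), and the signal in the deposited summit lists is the tag pileup. All deposited summit values are whole numbers, as unscaled tag counts are. The scaling to library size that the methods name was taken to concern signal tracks.

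Peaks and summits were joined by name (Python 3.11.15, scipy 1.17.1). Overlaps needed 1 bp. Distal meant away from 2 kb either side of every start site of the GENCODE annotation of mm10. Shares have Wilson intervals, ratios exact binomial intervals and medians order-statistic intervals. The code for region classes was run on simulated isolated sites (0 of 4000 wrong). These held at most 1 peak per arm and no promoters of genes outside the set, so crowded loci were not covered. All 36 members were accounted for. Values were given for members with a promoter region in 1 arm only, though not for every such region. Not described were FLAG regions at Irf2 and Ifnar1 and a BRG1 region at Stat2. Nor were H3K4me1 regions at Irf2, Stat2, Stat3, Ifnar2, Ifngr2, Usp18 and Eif2ak2. Values were also given for members with the largest differences in distal FLAG and BRG1 peaks in each direction (ties included). The tallest distal FLAG site of each role group was given too. Sequences were chosen by the lower of the FLAG and BRG1 heights. The members and lists were chosen with earlier results of these data known. AP-1, the octamer and a minimum height of 15 tags were added after the values had been seen, and the promoters to print were chosen then. Alternatives were other score limits, list lengths, locus sizes (10 and 50 kb), promoter sizes, summit windows, merging distances and motif windows.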

Additional observations from a re-analysis of the deposited data

Results flagged for a closer look

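Distal H3K4me1 peaks at the member loci had a ratio of NanogBiD over NanogWT of 0.51, while FLAG, BRG1 and H3K27ac had ratios above 1 (1.30, 2.47 and 1.3). Over all loci the ratios also lay on opposite sides of 1, with 0.74 for H3K4me1 against 1.32, 2.01 and 1.25. With lists of equal length the member ratios were 0.909 for H3K4me1, 1.33 for FLAG, 0.714 for BRG1 and 1 for H3K27ac, so the opposition to BRG1 and H3K27ac was not present there. The difference between targets was not tested.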

How the results depend on the processing

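Of 223 values under alternative settings, 184 stayed inside the 95% interval of the reported value (for counts of members, within 1.5 times it), 38 moved further and 1 reversed, which was counted only where the reported interval lay wholly on one side of no difference. Of the rest, the H3K4me1 peak ratio also crossed 1 (below), and the distal median log2 height ratio changed sign for BRG1 (-0.107 with scores of at least 100 and with equal lists) and H3K27ac (-0.109 with 50 kb). Loci of 10 or 50 kb, merging across 500 bp and motif windows of 100 bp moved none outside these limits. With every list cut to its 20000 best scores the BRG1 peak ratio reversed to 0.636 and the H3K4me1 ratio was 1.09. In that setting, chosen for this count after seeing the data, 5 members had more distal FLAG and BRG1 peaks in NanogBiD. Own-promoter peaks were counted at 15 (NanogWT) and 17 (NanogBiD) members for FLAG, 27 and 18 for BRG1, where the order of the arms turned, and 13 and 18 for H3K4me1. Promoter peaks over all protein-coding loci had ratios of 0.884 (FLAG), 0.75 (BRG1) and 1.15 (H3K4me1) there. BRG1 promoter regions were 35.7% in NanogWT only and 0% in NanogBiD only, BRG1 distal regions 44.4% and 22.2%, H3K4me1 distal regions 37.5% and 31.2%. H3K27ac distal regions in NanogWT only were 33.3%, H3K4me1 promoter regions in NanogBiD only 39.1%, enhancer regions in NanogBiD only 28.1%, and distal ISRE-type matches 0%. With scores of at least 100, regions in NanogWT only were 29% (FLAG distal), 0% (BRG1 promoter), 26.9% (H3K4me1 promoter) and 30.4% (enhancers). H3K27ac promoter regions in NanogBiD only were 14.3%, the H3K27ac distal median log2 ratio was 0.339, and H3K4me1 was at 20 and 18 promoters. With summit windows of 100 bp, promoter regions in NanogWT only were 21.2% (FLAG), 17.1% (BRG1), 22.2% (H3K27ac) and 28.1% (H3K4me1), and H3K27ac in NanogBiD only was 26.7%. A minimum height of 15 tags was chosen after seeing the data. Under it FLAG distal regions in NanogBiD only were 60%, BRG1 was at 18 and 21 promoters, H3K27ac promoter regions in NanogWT only were 0%, H3K4me1 ones 31.7%, and enhancers in NanogBiD only 9.09%. With promoters of 1 kb both one-arm H3K27ac shares were 0%. Except where printed above, shares over all loci in the same setting were not set beside these values. The cause of these moves was not tested. No paired analysis was possible because there was a single library per group. Depth was unknown, so peaks near the calling limit could not be told apart from weak sites missed in a shallower library.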
